A study of Mus musculus with 14 samples.

Results

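OT-I cells that overexpressed Prdm1 and had entered E.G7 tumors were compared with the control OT-I cells that had been transferred together with them. All libraries labelled as control (Prdm1neg) or Prdm1-overexpressing entered the comparison, 2 of each, which makes 4 of the 14 libraries of the series. The transgenic receptor of OT-I cells, a kind of CD8+ T cell, recognizes a peptide of ovalbumin, and E.G7 is a mouse lymphoma line that descends from EL4 and expresses ovalbumin. The cells were recovered from the tumors by flow sorting about 8 days after transfer, and total RNA was sequenced. The series also profiled Bcl6-overexpressing OT-I cells with their own controls, which serve here as a contrast, and sorted tumor-infiltrating CD8+ cells, which were not used here. The labels do not say which vector delivered Prdm1 or what the controls carried, how the cells were marked for sorting, or whether the replicates came from separate animals, so p-values measure only the spread between these samples. Of 19825 genes listed, the 9947 with a mean of at least 1 FPKM (fragments per kilobase of gene, corrected for library size) over the 4 libraries were tested.

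Prdm1 encodes Blimp-1, a zinc finger repressor that drives the terminal differentiation of plasma cells and of effector T cells and that restrains memory formation in CD8+ T cells. Blimp-1 and the repressor Bcl6 are known to oppose each other in lymphocytes. In tumors and chronic infection, exhausted CD8+ cells are kept up by a stem-like pool that expresses TCF-1 (from Tcf7) and the receptor SLAMF6, and that gives rise to terminally exhausted cells with receptors such as TIM-3, CXCR6 and 2B4 (from Cd244a).

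Deposited counts summed to 18309162 and 19350049 in the controls and to 18381231 and 18372315 in the Prdm1-overexpressing libraries, and 17648 to 19301 genes were detected. The markers of the labelled cell type were present in all 4 libraries: Cd8a lay between 516 and 687 CPM (the count of a gene at a library size of 1e+06, with TMM factors that adjust for composition) and Cd3e between 304 and 450.4 CPM. Cd4 stayed at or under 2.89 CPM. Log2 CPM correlated across genes at 0.966 between the controls, at 0.972 between the Prdm1-overexpressing libraries and at 0.930 to 0.953 between groups. Changes are given as log2 fold changes, Prdm1-overexpressing minus control, with their standard error (SE) from edgeR. A gene was called changed at an adjusted p below 0.05, with Benjamini-Hochberg adjustment over all 9947 genes.

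Prdm1 was higher in the cells made to overexpress it, but by a modest factor. Its level (chromosome 10, 44437174 to 44528558 in GRCm38) was 110.5 and 90.6 CPM in the controls and 158 and 195 CPM in the Prdm1-overexpressing libraries. Both overexpressing libraries lay above both controls. The log2 fold change was 0.81 (SE 0.19), a 1.76-fold difference, and it missed the threshold (edgeR adjusted p = 0.0923). In DESeq2 the difference passed (0.77, adjusted p = 0.0346). In edgeR it missed with RLE size factors (0.77, adjusted p = 0.0799) and with scaling to total counts (0.72, 0.0929). With a library left out it ranged from 0.57 to 0.96. The opposing repressor Bcl6 was low, at 7.79 and 8.96 CPM in controls and 19.9 and 20.7 CPM with Prdm1 (log2 fold change 1.28, SE 0.29), and also missed the threshold (adjusted p = 0.0886). Its groups did not overlap, and the higher values stood in the Prdm1-overexpressing cells.

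Few genes passed the test, and their split by direction varied with the fit. In all, 135 genes were called (1.36% of those tested), 115 higher (1.16%) and 20 lower (0.201%), and 104 of the higher and 16 of the lower genes differed by at least 2-fold. The median log2 fold change of all tested genes was 0.02. None of the 135 genes had overlapping groups. With 2 libraries a group, separate groups are frequent even without an effect, so at an uncalled gene they are description only. Of the 115 called higher, 23 had a control mean under 1 FPKM and so reached the FPKM filter only through the group where they were high, while none of the 20 called lower had a Prdm1 mean under it. The split depended on scaling: with RLE size factors 191 were higher and 84 lower, with scaling to total counts 174 and 120, and with DESeq2 354 and 232. The calls also rested on having both controls. Without control replicate 1, 5 genes were called and without control replicate 2 only 3 were, whereas 784 were called without Prdm1-overexpressing replicate 1, of which 357 were higher and 427 lower, and 185 without replicate 2. All 135 genes kept their direction in these 4 reduced fits, but groups that do not overlap nearly ensure that, so it does not test the calls.

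**Figure D1:**
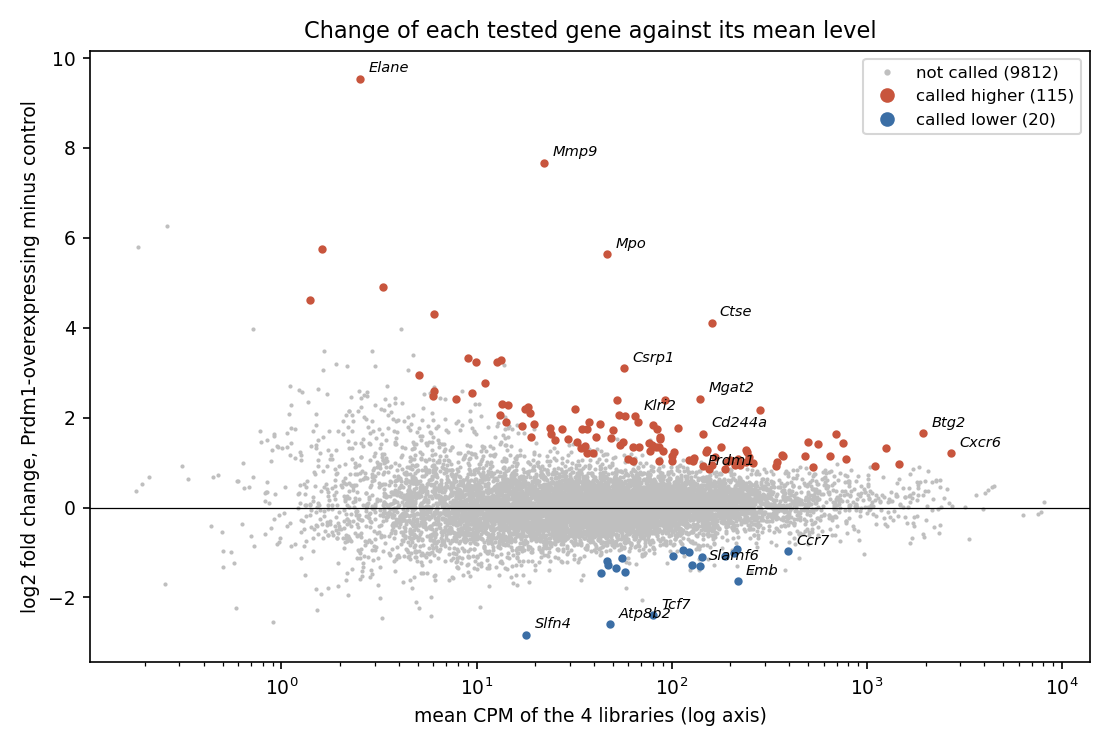
Log2 fold change of each of the 9947 tested genes (vertical axis) against its mean CPM over the 4 libraries (horizontal log axis), with called genes coloured and some labelled. The 115 genes called higher spread over all levels while Prdm1 itself, at 0.81, is not called; Elane was at 0 counts in both controls, so its plotted fold change depends on the fitting and is no measurement.

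Tcf7, Slamf6 and Ccr7, from the stem-like list, fell in the Prdm1-overexpressing cells. Tcf7 (chromosome 11, 52246527 to 52283383), the gene of TCF-1, measured 123 and 145 CPM in the controls and 26.4 and 24.8 CPM with Prdm1. The groups were far apart, with little spread within each, and Tcf7 fell by 2.39 on the log2 scale (SE 0.19, adjusted p = 0.00591), a level 5.24-fold lower. In bulk RNA, fewer cells with a transcript and less of it per cell cannot be told apart. Slamf6 (chromosome 1, 171917458 to 171948958) measured 199 and 200.3 CPM in the controls and 86.9 and 74.2 CPM with Prdm1. It fell by 1.31 (SE 0.17, adjusted p = 0.0225), again with groups that did not overlap. Ccr7, the chemokine receptor that guides T cells into lymph nodes, went from 510.3 and 537 to 253 and 279 CPM (-0.97, SE 0.15, adjusted p = 0.0362). For each of these 3 genes, both Prdm1-overexpressing libraries lay below both controls. Their calls were lost when either control was left out, with adjusted p at most 0.165 for Tcf7, 0.202 for Slamf6 and 0.242 for Ccr7.

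These 3 genes were the called members among 17 tested of the stem-like list, none of which was called higher, and 6 members had positive estimates. The median of the list was -0.64, against 0.02 over all genes. Members that missed the threshold had estimates on both sides: Id3, an inhibitor of E proteins, measured 8.65 and 7.20 CPM in controls and 1.47 and 2.22 CPM with Prdm1 (-2.09, adjusted p = 0.0836), and the chemokine gene Xcl1 was at 33.3 and 22.7 CPM in controls and 11.1 and 6.77 CPM with Prdm1 (-1.65, adjusted p = 0.0806). Lef1, a relative of Tcf7, was at 68.3 and 60.3 CPM in controls and 80.6 and 98.7 CPM with Prdm1 (0.48, adjusted p = 0.24), and Il7r, the receptor of the survival cytokine IL-7, at 115 and 101 CPM in controls and 92.0 and 89.3 CPM with Prdm1 (-0.26, adjusted p = 0.467). A list of genes known to be repressed by Blimp-1 or to oppose it, which shares Tcf7 and Ccr7 with the stem-like list, had those 2 of 11 tested members called lower and a median of -0.60. Of its remaining 9 members, Bcl6 alone had a positive estimate. Myc, the growth regulator, was at 329.7 and 338 CPM in controls and 259 and 286 CPM with Prdm1 (-0.29, adjusted p = 0.345).

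Cxcr6, Cd244a and Cd38, from the terminal exhaustion list, rose. Cxcr6 (chromosome 9, 123806477 to 123811754), a chemokine receptor of tissue-resident and terminally differentiated CD8+ cells, measured 1544 and 1692 CPM in the controls and 3662 and 3869 CPM with Prdm1 (log2 fold change 1.22, SE 0.15, adjusted p = 0.0222). Cd244a (chromosome 1, 171558718 to 171585316), which encodes the receptor 2B4, went from 73.1 and 67.2 to 217 and 222 CPM (1.64, SE 0.16, adjusted p = 0.0106). Cd38, an NAD-consuming ectoenzyme, went from 49.4 and 37.6 to 118 and 111 CPM (1.40, SE 0.20, adjusted p = 0.031). In all 3 genes the groups were well separated. The 2 libraries of each group lay close together, except that the Cd38 controls differed by 0.39 log2 CPM. With no FPKM filter in edgeR, Cd38 was not called (adjusted p = 0.07), while Cxcr6 (0.0315) and Cd244a (0.0237) were. Cxcr6, Cd244a and Cd38 were not called when either control was left out. Their log2 fold changes without control replicate 1 were 1.15, 1.71 and 1.61, and without control replicate 2 they were 1.29, 1.58 and 1.21. Havcr2, the gene of TIM-3, measured 724 and 813 CPM in the controls and 1192 and 1349 CPM with Prdm1, a separation of groups that missed the threshold (0.73, SE 0.16, adjusted p = 0.0825).

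**Figure D2:**
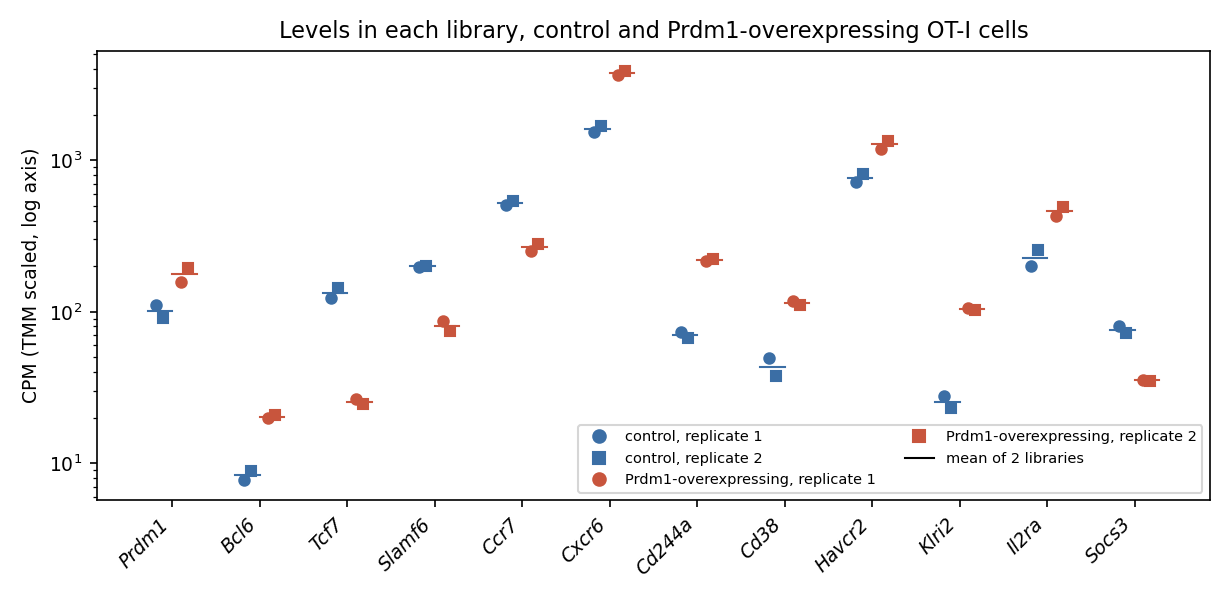
CPM of 12 genes (log axis) in the 2 control libraries (blue) and the 2 Prdm1-overexpressing libraries (red), circles for replicate 1 and squares for replicate 2, with a line at each mean of 2. Tcf7, Slamf6, Ccr7 and Socs3 lie lower with Prdm1, Cxcr6, Cd244a, Cd38, Klri2 and Il2ra lie higher, and Prdm1, Bcl6 and Havcr2 lie higher without passing the test.

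Most of the terminal exhaustion list was not called. Of its 20 tested members 3 were called higher and none lower, and the median was 0.12. Pdcd1, the gene of the checkpoint receptor PD-1, was at 1458 and 1532 CPM in controls and 1174 and 1278 CPM with Prdm1 (-0.29, adjusted p = 0.353). Lag3, another checkpoint receptor, was at 924 and 801 CPM in controls and 671 and 736 CPM with Prdm1 (-0.29, adjusted p = 0.366). Neither estimate pointed the way of Cxcr6 or Cd244a. Among 16 inhibitory receptors, Cd244a was the 1 called, and the median was 0.23. Cd96, a receptor for nectin-like ligands, was at 266 and 317 CPM in controls and 464 and 526 CPM with Prdm1 (0.76, adjusted p = 0.0816). Cd160 was at 218 and 139 CPM in controls and 90.6 and 46.2 CPM with Prdm1 (-1.38, adjusted p = 0.104), and its replicates differed within each group.

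Cd244a and Slamf6 stand at opposite ends of the SLAM receptor cluster on chromosome 1, and they changed in opposite directions. SLAM receptors are immunoglobulin-type molecules, most of which bind themselves on neighbouring cells. The 5 genes between them, in order Ly9, Slamf7, Cd48, Slamf1 and Cd84, had log2 fold changes of 0.03, 0.07, -0.16, 0.28 and 0.12, and none was called (adjusted p from 0.416 to 0.942). Of these, Cd48 encodes the ligand of 2B4. It measured 369.9 and 292 CPM in the controls and 423 and 168 CPM with Prdm1, so the Prdm1-overexpressing replicates lay on either side of both controls. Sh2d1a, which encodes the adaptor SAP that signals from these receptors, was at 78.6 and 59.9 CPM in controls and 71.3 and 34.5 CPM with Prdm1 (-0.39, adjusted p = 0.581).

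Promoter sequence is shown for 4 called genes: Slamf6, which fell, Cxcr6, which rose, and Csf1 and Atp8b2, a called gene of each direction whose window holds AGNGAAAG, the core of the known Blimp-1 site, which overlaps the elements bound by interferon regulatory factors. The bases are those upstream of the RefSeq start in the GRCm38.p6 promoter table, without any that lie inside an annotated transcript of the gene, read 5′ to 3′ on the gene's strand. Capitals mark AGNGAAAG or its inner GAAAG on either strand (CTTTC where the match is on the opposite strand). The stretches are Slamf6 at chr1:171917212-171917457 on the plus strand, Cxcr6 at chr9:123806227-123806474 on the plus strand, Csf1 at chr3:107760470-107760719 on the minus strand and Atp8b2 at chr3:89963509-89963588 on the minus strand.
Slamf6: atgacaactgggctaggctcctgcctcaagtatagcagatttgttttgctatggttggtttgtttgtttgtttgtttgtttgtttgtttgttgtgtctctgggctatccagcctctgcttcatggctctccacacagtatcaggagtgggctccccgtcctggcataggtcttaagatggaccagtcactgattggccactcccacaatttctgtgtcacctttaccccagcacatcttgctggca
Cxcr6: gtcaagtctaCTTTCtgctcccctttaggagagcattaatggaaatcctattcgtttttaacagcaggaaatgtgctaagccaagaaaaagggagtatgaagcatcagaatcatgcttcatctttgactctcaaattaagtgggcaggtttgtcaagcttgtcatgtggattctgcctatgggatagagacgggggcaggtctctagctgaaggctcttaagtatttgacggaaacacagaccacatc
Csf1: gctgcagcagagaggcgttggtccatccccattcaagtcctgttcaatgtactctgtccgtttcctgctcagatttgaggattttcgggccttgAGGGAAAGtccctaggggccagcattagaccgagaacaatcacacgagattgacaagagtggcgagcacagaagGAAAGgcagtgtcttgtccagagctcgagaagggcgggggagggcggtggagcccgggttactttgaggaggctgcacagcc
Atp8b2: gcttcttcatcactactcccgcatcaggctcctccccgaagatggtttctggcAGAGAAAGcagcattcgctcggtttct

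The AGNGAAAG match began 156 bases upstream of the RefSeq start in Csf1 and 197 bases upstream in Atp8b2, both on the gene's own strand. The Slamf6 stretch held neither motif and the Cxcr6 stretch held GAAAG on the opposite strand. Over the full windows of 300 bases (250 upstream and 50 downstream), searched on both strands, AGNGAAAG stood in 12 of the 85 genes called higher that had a window (14.1%), in 1 of the 16 called lower (6.25%) and in 9% of the 8048 tested genes with a window. The share was 8.63% of all 32851 windows. The inner GAAAG stood in 67.1% of genes called higher, 62.5% of those called lower, 57.6% of tested genes and 57.3% of all windows. These matches describe letters in a window, and no binding was measured. Ccr7 and Klri2 have no entry in the table.

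Among killer-cell lectin-like receptors, which sense MHC class I and related ligands on target cells, 2 of 13 tested rose and none fell. Klri2 measured 27.8 and 23.1 CPM in the controls and 106 and 103 CPM with Prdm1 (log2 fold change 2.04, SE 0.20, adjusted p = 0.0106). Klrb1c, the gene of NK1.1, went from 11.5 and 10.01 to 32.1 and 41.8 CPM (1.78, SE 0.27, adjusted p = 0.0362). Both genes were several times higher in each Prdm1-overexpressing library than in either control. The calls of Klri2 and Klrb1c were lost when either control was left out. That of Klrb1c was also lost without Prdm1-overexpressing replicate 2 (log2 fold change 1.49). With no FPKM filter in edgeR, Klri2 was still called (adjusted p = 0.021), while Klrb1c was not (0.0692). The median of the list was 0.30. Klrc1, which encodes the inhibitory receptor NKG2A, was at 764 and 825 CPM in controls and 1247 and 1204 CPM with Prdm1 (0.62, adjusted p = 0.0963), and Klrg1, a marker of short-lived effector cells, at 96.1 and 75.5 CPM in controls and 52.6 and 44.1 CPM with Prdm1 (-0.83, adjusted p = 0.108).

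No cytotoxic effector gene passed in the edgeR fit with TMM factors, with 0 of 22 called, 12 positive estimates and a median of 0.10. Prf1, the gene of perforin, measured 1206 and 1284 CPM in the controls and 1891 and 2266 CPM with Prdm1 (0.74, SE 0.16, adjusted p = 0.0835). Fasl, the ligand of the death receptor Fas, measured 426 and 503 CPM in controls and 827 and 790.2 CPM with Prdm1 (0.80, SE 0.16, adjusted p = 0.0672). Gzmk, a granzyme of memory-like cells, measured 228 and 173 CPM in controls and 100.3 and 53.5 CPM with Prdm1 (-1.38, SE 0.30, adjusted p = 0.0827). The groups of these 3 genes did not overlap, which is not rare with 2 libraries a group, and 3 of 3 missed the threshold in that fit. The misses of Gzmk and Fasl depended on the fit. In DESeq2 both passed (adjusted p = 0.000119 for Gzmk and 0.0141 for Fasl). In edgeR with RLE size factors Gzmk passed (0.0169) and Fasl did not (0.0594). In edgeR with no FPKM filter both missed (0.0965 and 0.161). For some granule genes the Prdm1-overexpressing replicates differed widely: Gzmb was at 1940.1 and 1667 CPM in controls and 3360.4 and 2092 CPM with Prdm1, and Gzma at 435 and 272 CPM in controls and 285 and 102 CPM with Prdm1. Nkg7, a granule membrane gene, was at 1905 and 1158 CPM in controls and 2215 and 864 CPM with Prdm1, so replicate 1 was far above replicate 2 in both groups. These last 2 genes and Gzmb were chosen after their values were seen.

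Homing receptors changed in both directions, with Cxcr6 and Ccr8 higher and Ccr7 lower among 21 tested (median -0.18). Ccr8, a chemokine receptor of skin-homing and activated T cells, went from 47.0 and 43.9 to 119.5 and 99.4 CPM (1.27, SE 0.19, adjusted p = 0.0345). Ccr2, which guides cells to inflamed tissue, was at 556 and 609.6 CPM in controls and 915 and 1013 CPM with Prdm1 (0.73, adjusted p = 0.0764). Itga1, the collagen-binding integrin chain of resident cells, was at 36.3 and 17.5 CPM in controls and 70.7 and 84.9 CPM with Prdm1 (1.53, adjusted p = 0.0836). The lymph egress receptor S1pr1 was at 174 and 175 CPM in controls and 99.0 and 131 CPM with Prdm1 (-0.60, adjusted p = 0.157). None of the last 3 was called, and their groups did not overlap.

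Of 21 chemokine and cytokine genes, Csf1 was called higher and none lower (median -0.24). Csf1, which encodes the macrophage growth factor M-CSF, went from 82.2 and 97.2 to 196 and 224 CPM (1.23, SE 0.17, adjusted p = 0.028). Ccl9 was at 43.0 and 37.8 CPM in controls and 146 and 84.2 CPM with Prdm1 (1.51, adjusted p = 0.0546), and Ifng, the gene of interferon gamma, at 678 and 521 CPM in controls and 699 and 318 CPM with Prdm1 (-0.24, adjusted p = 0.752). The results for Csf1 and Ccl9 depended on the fit. Both passed in edgeR with RLE size factors (adjusted p = 0.0121 and 0.0133) and in DESeq2 (6.4e-05 and 5.24e-05). They missed in edgeR with no FPKM filter (0.0773 and 0.105). Of 27 cytokine receptors and signalling feedback genes, Il2ra rose and Socs3 fell (median 0.15). Il2ra, the high-affinity chain of the IL-2 receptor, went from 199.7 and 255 to 431 and 493 CPM (1.02, SE 0.18, adjusted p = 0.048). Socs3, an inhibitor of cytokine signalling through gp130, went from 80.4 and 72.0 to 35.3 and 35.1 CPM (-1.11, SE 0.19, adjusted p = 0.0463). Both genes had separate groups in all 4 libraries. With RLE size factors in edgeR they passed (adjusted p = 0.0293 for Il2ra and 0.0197 for Socs3). With no FPKM filter in edgeR they missed (0.115 and 0.0648). The partner chains Il2rb, at 1695 and 1373 CPM in controls and 1253 and 1438 CPM with Prdm1, and Il2rg, at 1409 and 1567 CPM in controls and 2928 and 2341 CPM with Prdm1, were not called (adjusted p = 0.603 and 0.0763).

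Transcription factors of effector and exhausted cells were not called in the edgeR fit with TMM factors. None of 17 effector factors passed, with 14 negative estimates and a median of -0.22, and none of 10 exhaustion factors passed, with a median of -0.15. Eomes, a T-box factor, came closest among the effector factors, at 74.5 and 88.4 CPM in controls and 40.4 and 34.7 CPM with Prdm1 (-1.12, SE 0.20, adjusted p = 0.0539). Its relative Tbx21, the gene of T-bet, was at 334 and 311 CPM in controls and 244 and 286 CPM with Prdm1 (-0.28, adjusted p = 0.389). Tox, a driver of the exhausted state, was at 127 and 127 CPM in controls and 84.7 and 87.8 CPM with Prdm1 (-0.56, SE 0.16, adjusted p = 0.135), and the orphan receptor gene Nr4a3 at 91.8 and 94.3 CPM in controls and 46.9 and 30.8 CPM with Prdm1 (-1.26, SE 0.24, adjusted p = 0.0602). The groups of Eomes, Tox and Nr4a3 did not overlap, and each was lower with Prdm1. The misses of Eomes and Nr4a3 depended on the fit. Both passed in edgeR with RLE size factors (adjusted p = 0.0209 and 0.016) and in DESeq2 (0.000441 and 0.00013). Tox passed in neither (0.132 and 0.101). In edgeR with no FPKM filter none of them passed (0.07 for Eomes, 0.0741 for Nr4a3 and 0.152 for Tox).

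The wider programs of activation, growth and metabolism gave few or no calls. Among 20 genes of the T cell receptor complex and T cell identity, Themis, which tunes receptor signalling, was called: it rose from 369 and 373 to 644 and 738 CPM (0.90, adjusted p = 0.0463). None of 36 proliferation genes was called (median 0.16), and Mki67, the gene of the cycling-cell antigen Ki-67, was at 219 and 270.1 CPM in controls and 274 and 307 CPM with Prdm1. Of 23 type I interferon response genes, Ifit1, an RNA-binding antiviral protein gene, rose from 122 and 158 to 321 and 361 CPM (1.29, adjusted p = 0.0281), with a list median of 0.30. Of 20 glycolysis and hypoxia genes, the glucose transporter gene Slc2a3 rose from 723 and 714 to 1617 and 1966 CPM (1.32, adjusted p = 0.0213), while Slc2a1 was at 261 and 255 CPM in controls and 239 and 288 CPM with Prdm1 and the list median was -0.11. Of 20 immediate early and dissociation genes, the antiproliferative gene Btg2 rose from 871 and 993 to 2894 and 3008 CPM (1.66, adjusted p = 0.0106), beside a median of -0.09. Each of these 4 genes stood alone as the called member of its list. None of 15 cholesterol synthesis genes, 16 apoptosis regulators or 17 costimulatory and TNF family genes was called, with medians of 0.30, -0.02 and -0.0034. Some members of the lists with no call had an unadjusted edgeR p below 0.05. They were 7 of 36 proliferation genes, 1 of 15 cholesterol genes, 5 of 16 apoptosis genes and 4 of 17 costimulatory genes. To these add 5 of 22 cytotoxic genes, 3 of 17 effector factors and 4 of 10 exhaustion factors. Over all tested genes it was 1910 of 9947, and no list was tested for an excess.

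**Figure D3:**
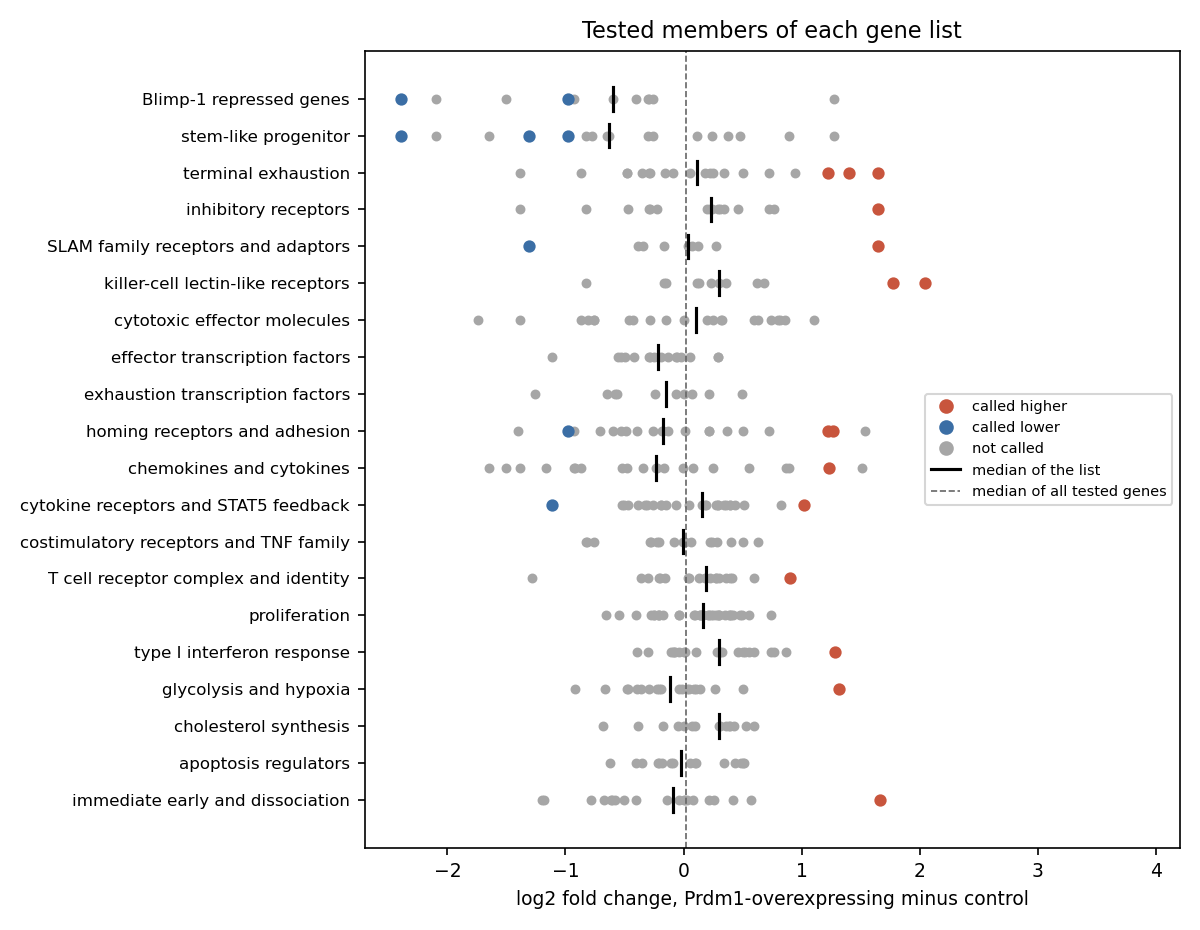
Log2 fold change, Prdm1-overexpressing minus control, of each tested member of 20 gene lists, with called members coloured, the median of each list as a black bar and the median of all tested genes (0.02) as a dashed line. The stem-like list and the list of Blimp-1 repressed genes have the lowest medians, -0.64 and -0.60; some genes stand in more than 1 list.

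The largest rises were in genes not on the T cell lists. Mmp9, a secreted gelatinase, went from 7 and 1 counts in the controls to 631 and 919 counts with Prdm1 (log2 fold change 7.68, SE 0.59, adjusted p = 0.00591). Mpo, the gene of myeloperoxidase, went from 0.859 and 2.77 to 83.1 and 99.5 CPM (5.64, SE 0.48, adjusted p = 0.00719). Ctse, the aspartic protease cathepsin E, went from 19.9 and 15.1 to 290.4 and 315 CPM (4.11, SE 0.21, adjusted p = 0.0012) and had the smallest adjusted p of all genes. Mmp9 and Mpo had control means under 1 FPKM and entered the test only through the group where they were high. With no FPKM filter both were still called (adjusted p = 0.00611 and 0.00728). They are known best from granulocytes. Of 10 neutrophil markers, Elane, the gene of neutrophil elastase, was tested, having passed the FPKM filter only through the group where it was high. It had 0 counts in both controls and 132 and 43 counts with Prdm1 (7.77 and 2.39 CPM). The mean of the Prdm1-overexpressing libraries was at least 65.2-fold higher by CPM with the controls set to a floor of 3 counts over the group (counting error only). The edgeR adjusted p was 0.0445, and 0.0659 with no FPKM filter. The defining markers S100a8 and S100a9 stayed at or under 0.766 CPM in all 4 libraries, and the summed list was at 6.39 and 4.33 CPM in the controls and 14.7 and 9.38 CPM with Prdm1. The part of such cells in the rise of Mpo and Mmp9 was not tested.

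The other 9 of the 12 leading rises were spread over many functions. Csrp1, a LIM domain protein gene of the actin cytoskeleton, went from 13.9 and 9.96 to 106 and 97.6 CPM (3.09, adjusted p = 0.00591). F2rl2, which encodes the protease-activated receptor PAR3, went from 35.3 and 23.3 to 163 and 147 CPM (2.40, adjusted p = 0.0106). Mgat2, an enzyme of N-glycan branching, went from 48.7 and 39.0 to 214 and 256 CPM (2.42, adjusted p = 0.00591). In all 3 genes each Prdm1-overexpressing library lay far above both controls. Otulinl went from 103 and 103 to 454 and 479.9 CPM (2.18, adjusted p = 0.00591), and Sumf1, the enzyme that activates sulfatases, from 12.4 and 10.3 to 52.4 and 52.0 CPM (2.20, adjusted p = 0.0157). The remaining leading rises were Fem1al (3.29), Garem2 (3.24), Rab24, a small GTPase gene linked to autophagy (2.77), and Syap1 (2.38). Fem1al and Garem2 also had control means under 1 FPKM, and with no FPKM filter their adjusted p was 0.0284 and 0.0237, whereas Rab24 was not called there (0.0583).

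The 12 leading falls held Tcf7, Slamf6 and Socs3 and 9 genes from other functions. Slfn4, a Schlafen family gene, went from 22.4 and 40.5 to 4.36 and 4.50 CPM (-2.83, SE 0.37, adjusted p = 0.025). Atp8b2, a flippase gene that moves phospholipids between membrane leaflets, went from 93.4 and 72.7 to 16.1 and 11.5 CPM (-2.59, SE 0.26, adjusted p = 0.0111). Emb, the gene of embigin, a chaperone of monocarboxylate transporters, went from 314 and 345 to 112 and 99.97 CPM (-1.64, SE 0.16, adjusted p = 0.0106). All 3 had lower values in each Prdm1-overexpressing library than in either control. Sesn2, a stress-induced inhibitor of mTORC1 (-1.42), the poly(A)-binding protein partner Larp4 (-1.46), Prrc2a (-1.33), Baiap3 (-1.27), Csrnp1 (-1.27) and Atp2a3, a calcium pump of the endoplasmic reticulum (-1.09), fell by less than Emb.

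The summed levels of macrophage and dendritic cell markers were lower in both Prdm1-overexpressing libraries than in both controls, and of these markers Itgax alone was called. None of 12 tested macrophage markers was called, 10 had negative estimates, the median was -0.56, and the summed level was 577 and 505 CPM in the controls and 393 and 217 CPM with Prdm1. C1qb, a complement gene with the largest fall of the list, was at 20.5 and 13.8 CPM in controls and 5.24 and 2.16 CPM with Prdm1 (-2.21, adjusted p = 0.0836). Lyz2, the lysozyme of myeloid cells, was at 329 and 289 CPM in controls and 163 and 87.1 CPM with Prdm1 (-1.31, adjusted p = 0.0796). C1qb and Lyz2 passed in edgeR with RLE size factors (adjusted p = 0.0232 and 0.0168) and in DESeq2 (0.000213 and 0.000127). They missed in edgeR with no FPKM filter (0.0997 and 0.0938). The class II gene H2-Ab1 was at 497 and 435 CPM in controls and 238 and 103 CPM with Prdm1 (-1.45, adjusted p = 0.0987). In each of these genes Prdm1-overexpressing replicate 2 was the lowest of the 4 libraries and replicate 1 lay between it and the controls. Itgax, the gene of CD11c, which activated CD8+ T cells also express, fell from 146 and 154 to 75.7 and 80.1 CPM (-0.95, adjusted p = 0.0463). Of 6 tested dendritic cell markers it was the 1 called, 3 had positive and 3 negative estimates, and the summed level of the whole list of 10 was 696 and 642 CPM in the controls and 389 and 255 CPM with Prdm1. The part of other cells in the fall of Itgax, and in the values of Csf1 and the stem-like genes, was not tested. Of 8 tested markers of CD4+ and regulatory T cells, Il2ra was the 1 called, and Foxp3, which defines regulatory cells, stayed at or under 3.33 CPM. For the other cell types, summed marker levels were 15.9 to 22.2 CPM for B cells and 188 to 224 CPM for stromal and endothelial cells. Erythroid markers summed to at most 4.94 CPM. Of thymocyte and lymphoma markers, Rag2 and Dntt stayed at or under 2.39 CPM, and Themis made up most of the sum.

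Replicates of a group disagreed at a minority of genes, and wide gaps were more frequent in the Prdm1-overexpressing cells. The median absolute difference between replicates was 0.26 log2 CPM in the controls and 0.25 in the Prdm1-overexpressing cells. A difference above 1 was seen at 581 genes (5.84%) in the controls and at 773 genes (7.77%) in the Prdm1-overexpressing cells, and in 737 of the 773 replicate 1 was the higher. The 4 genes of at least 5 FPKM with the widest gaps were Csf2, Gemin6, Stmn1 and Nudt22 in the Prdm1-overexpressing cells. Csf2, the gene of GM-CSF, was at 7.36 and 1.61 CPM there against 10.1 and 6.94 CPM in the controls, and Stmn1, a microtubule regulator of cycling cells, was at 178 and 55.5 against 173 and 109.6 CPM. Gemin6, a splicing assembly factor, was at 24.6 and 7.16 CPM and Nudt22 at 12.5 and 3.83 CPM. In each of these 4 genes replicate 2 was the low one. In the controls the widest gaps were at Phlda3 (14.02 and 4.18 CPM), Wdr95 (32.9 and 10.1 CPM), Gm45902 (11.7 and 34.3 CPM) and Rnf187 (74.2 and 25.3 CPM). None of these 8 genes was called.

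The disagreement moved with gene length. Lengths were implied by the ratio of count to FPKM, and the tested genes were split by length into 5 bins of nearly equal size, the shortest of which reached 2477 bases. In that bin the median of replicate 1 minus replicate 2 was 0.26 log2 CPM in the controls and 0.58 in the Prdm1-overexpressing cells, against -0.10 to 0.05 in the other bins of either group. Across genes, which are not independent replicates, length and this difference had a Spearman rho of -0.24 in the controls and -0.38 in the Prdm1-overexpressing cells. In the shortest bin 0.853% of genes were called, against 1.16% to 1.81% in the others. Cd3g, which encodes a chain of the T cell receptor complex, was among those that disagreed, at 729.8 and 443 CPM in controls and 876 and 330.4 CPM with Prdm1, and was chosen after its values were seen. Mitochondrial genes made up 0.646% and 0.576% of counts in the controls and 0.735% and 0.352% in the Prdm1-overexpressing libraries, the lowest share being in replicate 2. The part of RNA quality in these gaps was not tested. Removing a length trend from each library, an alternative chosen after seeing the data, gave 492 calls, which included all 135.

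**Figure D4:**
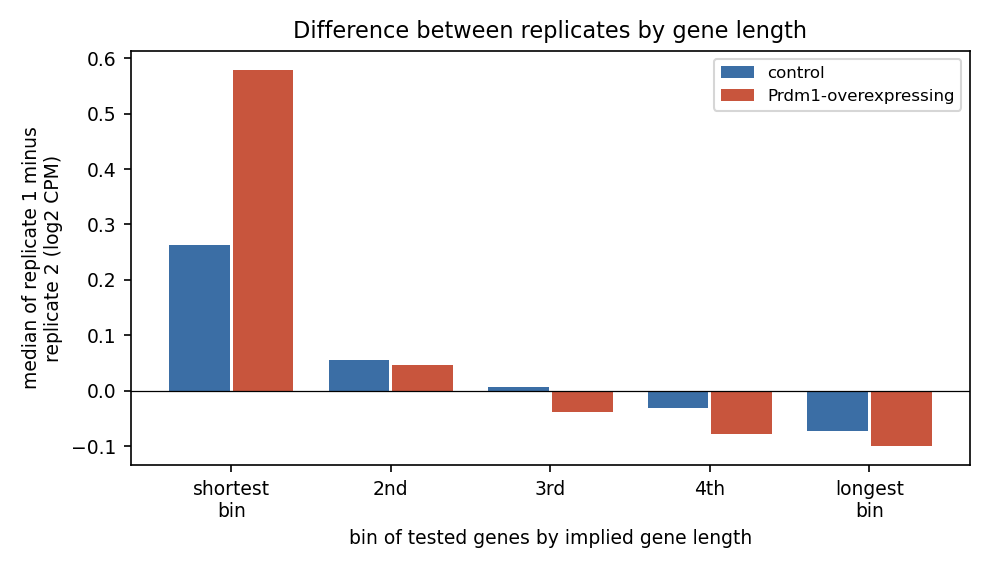
Median of replicate 1 minus replicate 2 (log2 CPM, bars from 0) over the tested genes in each of 5 bins of implied gene length, for control (blue) and Prdm1-overexpressing cells (red). The bars of the shortest bin, 0.26 and 0.58, stand above all others, which lie between -0.10 and 0.05.

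Bcl6 is the repressor that opposes Blimp-1, and OT-I cells made to overexpress it, with 2 libraries and 2 controls of their own, allowed the responses to be compared. Each experiment was scaled within its own tables, and the difference of the effects was tested in 1 edgeR fit of the 8 libraries. In the Bcl6 experiment 48.8% of 9669 tested genes were called, 25.4% higher and 23.4% lower. Of the 115 genes that rose with Prdm1, 94 were tested with Bcl6: 50 were lower there (53.2%), 18 were higher (19.1%) and 26 were not called. Of the 20 that fell with Prdm1, 19 were tested with Bcl6: 9 were higher (47.4%), 1, Ehd3, was lower (5.26%) and 9 were not called. The Bcl6 effect on Tcf7 was 1.81, which differed from that of Prdm1 by -4.23 (SE 0.24, adjusted p = 4.28e-07). Slamf6 had a Bcl6 effect of 0.91 and a difference of -2.25 (SE 0.23, adjusted p = 2.55e-05). Both genes moved in opposite directions in the 2 experiments. The 12 macrophage markers tested with Prdm1, where 10 had negative estimates and none was called, were all called higher in the Bcl6-overexpressing cells. Lyz2 had a Bcl6 effect of 2.34 and C1qb, a complement gene of macrophages, one of 3.29. The part of such cells in the contrast was not tested.

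Cxcr6 and Cd244a were higher with Prdm1 and lower with Bcl6. Of the 20 terminal exhaustion genes, 10 were called lower and 4 higher with Bcl6. Over all genes tested with Bcl6, 23.4% were called lower and 25.4% higher. Cxcr6 had a Bcl6 effect of -2.17 and a difference of 3.36 (SE 0.24, adjusted p = 1.62e-06). Cd244a had a Bcl6 effect of -1.62 and a difference of 3.24 (SE 0.27, adjusted p = 5e-06). Prdm1 itself was lower in the Bcl6-overexpressing cells (-1.36, adjusted p = 1.11e-05). Havcr2 and Prf1, not called with Prdm1, were also lower with Bcl6, with log2 fold changes of -1.85 and -1.16. Emb, Klri2, Ccr8 and Atp8b2 changed with Prdm1 and were not called with Bcl6, and each differed between experiments: the difference was -1.56 for Emb (adjusted p = 0.000521), 2.28 for Klri2 (0.000415), 1.10 for Ccr8 (0.00834) and -2.27 for Atp8b2 (0.000176). The difference of effects was called for 41.2% of 9803 genes (20.9% higher and 20.3% lower with Prdm1), and for 89 of the 104 tested genes that rose and 18 of the 20 that fell with Prdm1, a count that the choice of these genes favours.

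A small group rose in both experiments. Csrp1 had a Bcl6 effect of 3.07 and Mpo one of 5.19, and for neither was a difference from the Prdm1 effect detected (adjusted p = 0.998 and 0.565). Their differences were 0.00095 (SE 0.26) and 0.43 (SE 0.56), so an unequal response within these errors cannot be told apart from an equal one. Ctse had a Bcl6 effect of 3.28, smaller than with Prdm1 by 0.81 (SE 0.30, adjusted p = 0.0477). Rab24 (2.23) and Elane were also higher with both. The neutrophil marker S100a8, near 0 in the Prdm1 experiment, was called higher in the Bcl6-overexpressing cells, and the part of neutrophils in the shared rises was not tested.

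**Figure D5:**
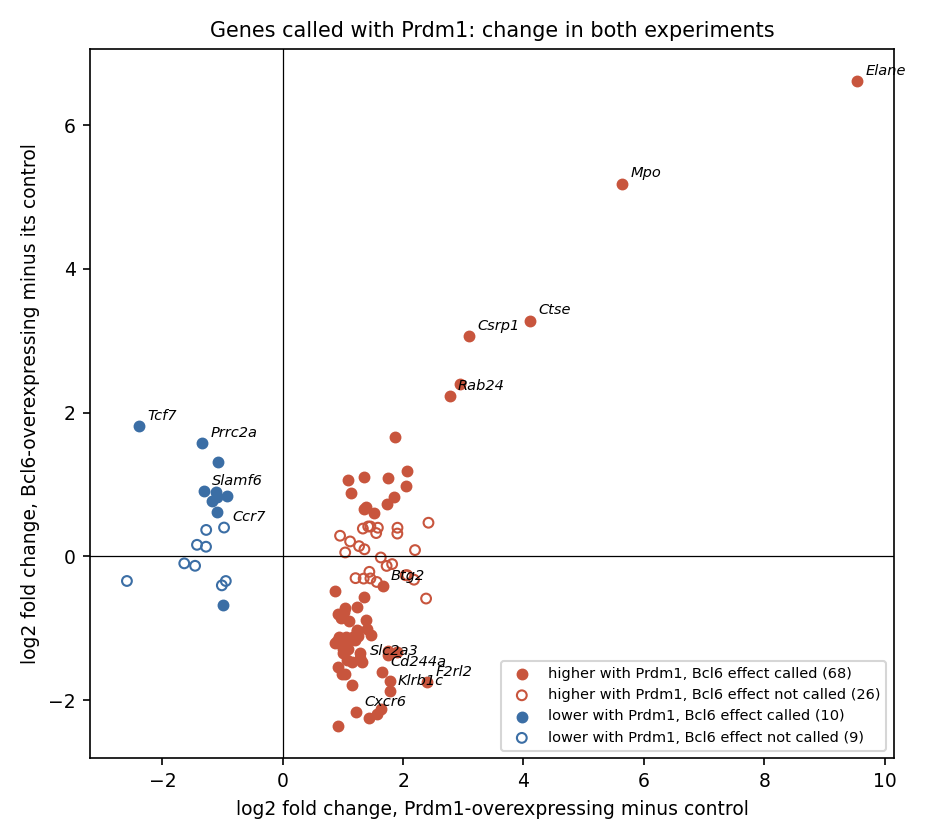
Log2 fold change with Bcl6 overexpression (vertical axis) against that with Prdm1 overexpression (horizontal axis) for the genes called with Prdm1 that were tested in both experiments, filled where the Bcl6 effect was also called. Of 94 genes that rose with Prdm1, 50 filled points lie below 0 and 18 above; Tcf7 and Slamf6 lie at upper left, and the fitted values of Elane are no measurement since its Prdm1 controls were at 0.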

How the data were processed

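RNA-seq libraries of 2 control and 2 Prdm1-overexpressing OT-I samples were analysed. The deposited files give, per the file headers, a count and an FPKM value for each gene symbol. The submitters' processing notes name HISAT2, featureCounts, RSEM, DESeq2 and the build mm10; no version, role or use of strand is given in the sources used here, so reads of overlapping genes and close paralogs may be shared. All values were whole-number counts with totals of 18309162 to 19350049, a depth at which a biological coefficient of variation of 0.227, rather than counting, set the precision of abundant genes. Groups were taken from the labels. The counts of genes whose mean FPKM reached 1 were fitted in edgeR 4.0.16 (R 4.3.3) with TMM factors and tested two-sided by quasi-likelihood F, and genes were called at a Benjamini-Hochberg adjusted p under 0.05. Each SE is the size of the log2 fold change divided by the root of F. CPM correlations used a prior count of 2. The difference of the Prdm1 and Bcl6 effects was a contrast over 8 libraries. The script was tested on simulated data. Gene positions came from RefSeq (GRCm38.p6).

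The text names the 12 called genes that rose most and the 12 that fell most, among those with separate groups and a higher group of at least 5 FPKM, without predicted models, pseudogenes and receptor segments. It also names Prdm1, Tcf7, Slamf6, Cxcr6, Cd244a, Bcl6 and Havcr2, up to 6 called members of each list (or the 2 with the smallest p), and the 4 genes of each group whose replicates differed most. Any other gene was chosen with its values in view. A gene that is not reported here was left out of the lists and of these choices, but not of the fits and counts over all genes. The members and lists were chosen with earlier results of these data known. Alternatives were RLE and total-count scaling, DESeq2 1.42.0, limma 3.58.1 on log2(FPKM + 1) and log2(FPKM + 0.1), other FPKM filters, a replicate block, leaving out each library, and removal of a gene length trend.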

Additional observations from a re-analysis of the deposited data

How the results depend on the processing

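The number of genes called between Prdm1-overexpressing and control cells was unstable, and so was their split by direction. Against 135, there were 275 calls with RLE size factors, 294 with total counts, 586 with DESeq2, 44 without an FPKM filter (19791 genes tested), 244 at a mean of at least 5 FPKM and 492 with the gene length trend removed, which was added after seeing the data. limma-trend gave 134 calls on log2(FPKM + 1) and 93 on log2(FPKM + 0.1). Leaving out 1 library gave 3 to 784. With a library left out, its group has 1 sample, which is assumed to vary like the other group. All 135 genes kept their direction wherever they were tested, which their separate groups nearly ensure, so it does not test the calls. The Prdm1 difference, 0.81 and not called, was called with DESeq2 (0.77), with the length trend removed (0.75) and in the replicate block. With a library left out it ranged from 0.57 to 0.96. Among those fits it was called only without Prdm1-overexpressing replicate 1 (0.95). The labels say that the cells were transferred together but not that libraries with the same number came from 1 recipient, and 2 pairs, whose deviations correlated at 0.28, are too few to settle it, so the numbers were not taken to pair the samples. With the replicate block 1659 genes were called, Prdm1 among them (0.81) with 28 others of the 38 named genes not called without it, and 4749 rather than 4043 for the difference of effects. That count ranged from 2891 to 4391 with a library left out and was 5882 without a filter, and no setting moved it by over 1.5 times. Of the 77 genes named by rule 39 were called, and of these 35 lost their call without control replicate 1 and 36 without control replicate 2. With 2 libraries a group, changes smaller than those called here were not detectable for most genes.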

Other observations

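Guanylate-binding proteins, interferon-induced GTPases that attack intracellular pathogens, were among the genes that rose with Prdm1. The family was singled out after its values were seen. Of 9 tested members, 4 were called higher and none lower, against 1.16% of all tested genes called higher, and the median was 0.85. Gbp10 went from 48.2 and 48.9 CPM in the controls to 146 and 187 CPM with Prdm1 (log2 fold change 1.78, SE 0.19, edgeR adjusted p = 0.0154). Gbp9 rose by 1.17, Gbp4 by 1.15 and Gbp6 by 1.13 on the same scale, each with separate groups. All 4 were lower in Bcl6-overexpressing cells, with effects of -1.73, -1.13, -1.48 and -1.14. Members of this family are close in sequence, and how reads shared between them were counted is not given.

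Flippases, which move phospholipids across membranes, were also singled out after their values were seen. Of 10 tested genes for P4-ATPases and their Tmem30 subunits, 2 were called higher and 1 lower. Over all tested genes 1.16% were called higher and 0.201% lower. In the family 8 estimates were positive and the median was 0.60. Tmem30a, the shared subunit, went from 221 and 243 CPM to 493 and 530.5 CPM (1.14, SE 0.15, adjusted p = 0.0257), and Atp8b4 from 461 and 550.2 CPM to 1013 and 1119.6 CPM (1.08, SE 0.17, adjusted p = 0.0362), while Atp8b2 fell by 2.59. Tmem30a and Atp8b4 were lower in Bcl6-overexpressing cells, with effects of -1.15 and -1.28. Il23a, a cytokine subunit, went from 6.77 and 8.35 CPM to 31.6 and 21.8 CPM (1.82, SE 0.32, adjusted p = 0.0483), and its call was lost without Prdm1-overexpressing replicate 1.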
